A study of Homo sapiens with 12 samples.

Results

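The SOX genes encode transcription factors that share the HMG box, a DNA-binding domain also encoded by the sex-determining gene SRY. The 10 described here are SOX10, SOX9 and SOX8 of group E, SOX5, SOX6 and SOX13 of group D, SOX4, SOX11 and SOX12 of group C, and SOX2 of group B1. They were chosen by symbol, and all 10 were found among the 26499 genes of the count tables, which hold 19 SOX genes in all. All 10 passed the filter on low counts, which kept 15506 genes for testing.

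RNA was measured in the melanoma lines A375 and SKMel28, both established lines of human origin. The 4 groups were resistant A375, sensitive A375, resistant SKMel28 and sensitive SKMel28, with 3 libraries each. Resistant cells of both lines were kept in 1 µmol/L vemurafenib, an inhibitor of mutant BRAF kinase, and no drug is named for sensitive cells, so resistance and the presence of the drug cannot be told apart. All cells grew in DMEM with 10% fetal bovine serum. The study's stated subject is the IGF1 pathway in resistance to BRAF and MEK inhibition. The labels give neither whether a resistant line was grown from 1 clone nor whether replicate libraries were separate cultures. The p-values therefore measure the spread between libraries, which may be technical.

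SOX proteins bind the minor groove of DNA, bend it, and depend on partner factors to choose their target genes. SOX10 directs the melanocyte and glial lineages of the neural crest and activates MITF, the central regulator of pigment cells. SOX9 is the SOX factor of cartilage and also acts early in the neural crest. The group D factors lack an activation domain of their own and work beside the group E factors, as co-factors of SOX9 in cartilage and as modulators of SOX10 in mouse melanocytes.

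The start of the HMG box can be compared between the members in their reference transcripts, though so short a stretch does not rank their likeness. Below are the first 27 coding bases of the segment aligned, read 5′ to 3′ from GENCODE release 29 (GRCh38), with capitals where a base differs from SOX10. They are shown because sequence shared between members bears on how reads are assigned to them.
SOX10: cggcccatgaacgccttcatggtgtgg
SOX9: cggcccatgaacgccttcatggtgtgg
SOX8: cggcccatgaacgcAttcatggtgtgg
SOX5: cgTccAatgaaTgccttcatggtgtgg
SOX6: cgAccAatgaaTgcAttcatggtTtgg
SOX13: Aggcccatgaacgccttcatggtgtgg
SOX4: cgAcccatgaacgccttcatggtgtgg
SOX11: cggccGatgaacgcGttcatggtAtgg
SOX12: AggccGatgaacgcAttcatggtgtgg
SOX2: cggcccatgaaTgccttcatggtgtgg
SOX9 matched SOX10 at every base of this stretch, SOX8, SOX13, SOX4 and SOX2 each differed at 1, and SOX6 differed at 5. Over the 225 bases of the box that were compared, identity to SOX10 was 89.3% for SOX9 and 86.2% for SOX8. It was 73.8% for SOX4, 73.3% for SOX11, 69.3% for SOX2 and 68.4% for SOX12, and the group D genes were lowest, with SOX13 at 64%, SOX5 at 60.9% and SOX6 at 54.2%. The longest run shared by the SOX10 and SOX9 transcripts was 45 bases, the longest of any pair of members and shorter than the 150-base reads.

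Reads assigned to genes ran from 28496518 to 37721363 per library. Log2 values correlated at 0.991 to 0.995 between libraries of a group, at 0.940 to 0.962 between resistant and sensitive libraries of a line and at 0.752 to 0.791 between lines. Levels are given as CPM, the usual depth-scaled count, taken on the TMM-adjusted library size. A gene was called at an adjusted p below 0.05 over all 15506 genes in edgeR's quasi-likelihood test with Benjamini-Hochberg adjustment, and every adjusted p below comes from that test. Log2 fold changes are resistant over sensitive, with standard errors, unless lines are compared. In A375, 9 of the 10 members were called, 3 higher and 6 lower, in a comparison that called 51.3% of all genes tested, 25% higher and 26.3% lower. In SKMel28 all 10 were called, 5 higher and 5 lower, where 70% of all genes were called, 34.2% higher and 35.8% lower. Mitochondrial genes took 6.82% to 7.13% of gene reads in resistant and 4.41% to 4.67% in sensitive SKMel28, and 2.11% to 2.27% in resistant and 1.85% to 1.99% in sensitive A375. Reads without a unique alignment made up 2.09% to 2.44% of counted reads in resistant and 4.004% to 4.47% in sensitive SKMel28. The part of these differences in the SOX changes was not tested. Because the lines' backgrounds are this high, being called says little about a member, and sizes and per-library levels carry the description.

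**Figure D1:**
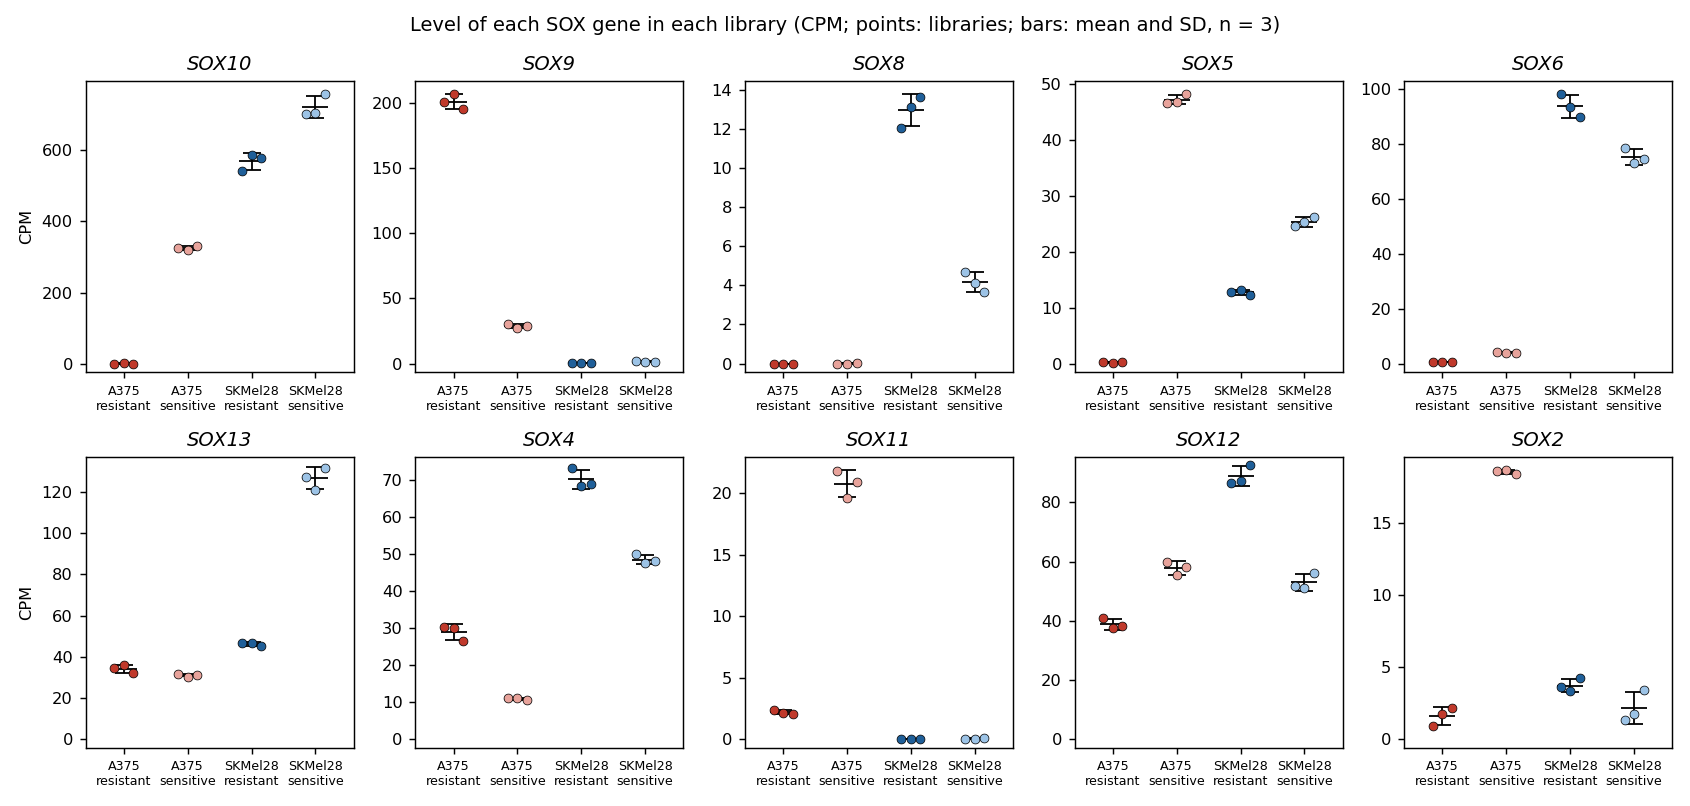
Level of each of the 10 SOX genes in CPM on a linear axis, with 1 panel per gene and its own scale. Points are libraries and bars the mean and SD (n = 3). SOX10 stood at 0.0839 to 0.178 CPM in resistant A375 and at 319.6 to 332 CPM in sensitive A375, while SOX9 was highest in resistant A375.

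SOX10, on the minus strand at chr22:37970686-37987422 (GRCh38), was close to absent from resistant A375 cells. The resistant A375 libraries held 3, 6 and 5 SOX10 reads, or 0.0839, 0.178 and 0.151 CPM, against 12901, 10480 and 9970 reads, or 325, 319.6 and 332 CPM, in sensitive A375. All 3 resistant libraries were low and none came near a sensitive one. The pooled counts put SOX10 2379.6-fold lower in resistant A375, with a 95% interval of 1418 to 4353 that covers counting error only, and the fitted log2 fold change was -11.18 ± 0.09 (adjusted p = 4.63e-51). In bulk RNA, fewer cells with the transcript and less transcript per cell cannot be told apart.

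In SKMel28, SOX10 had 541, 588 and 578 CPM in resistant cells, against 701, 706 and 757 CPM in sensitive cells. The groups did not overlap, and the resistant libraries kept more SOX10 than any A375 library. The fall there was -0.34 ± 0.04 on the log2 scale (adjusted p = 1.28e-11). POLR2F, a subunit gene of RNA polymerase II that overlaps 2.40% of SOX10's exon bases, did not fall with it in A375 (0.13 ± 0.04, adjusted p = 0.0168) and fell by 0.98 ± 0.05 in SKMel28 (adjusted p = 5.57e-22).

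SOX9, at chr17:72121020-72126420 on the plus strand, went the other way in A375. It had 201, 206 and 195 CPM in resistant A375, against 30.2, 27.3 and 28.8 CPM in sensitive A375. Every resistant library lay above every sensitive one, and SOX9 rose 6.98-fold, by 2.80 ± 0.05 on the log2 scale (adjusted p = 2.40e-37). SKMel28 cells had little SOX9 in either state, with 12, 17 and 19 reads (0.369, 0.536 and 0.554 CPM) in resistant libraries, against 50, 38 and 44 reads (1.67, 1.28 and 1.43 CPM) in sensitive ones. It fell there by 1.58 ± 0.22 on the log2 scale (adjusted p = 3.03e-08).

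SOX8, the third group E gene, acts alongside SOX10 in neural crest and glia. In A375 it had no read in any resistant library and 1 read over the sensitive ones, so no fold is given. In SKMel28 it had 12.1, 13.1 and 13.7 CPM in resistant cells, against 4.70, 4.13 and 3.68 CPM in sensitive cells. The groups were well apart, and SOX8 rose by 1.64 ± 0.15 (adjusted p = 4.51e-13). Its level in resistant SKMel28 stayed far below that of SOX10 in the same cells: per kilobase of exon, SOX8 stood at 2.92 ± 0.18 CPM and SOX10 at 153 ± 6.71 CPM (SD, n = 3).

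Of the group D genes, SOX5 followed SOX10 most closely in A375. It had 7, 6 and 10 reads (0.196, 0.178 and 0.303 CPM) in resistant A375, against 46.6, 46.7 and 48.1 CPM in sensitive A375. The loss came to -7.69 ± 0.14 on the log2 scale (adjusted p = 5.73e-38), and the pooled counts put it 210-fold lower, with a counting interval of 140 to 331. In SKMel28 it had 12.8, 13.2 and 12.3 CPM in resistant cells, against 24.5, 25.3 and 26.3 CPM in sensitive cells. SOX5 thus fell in both lines without overlap, by 0.99 ± 0.07 in SKMel28 (adjusted p = 1.15e-15).

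SOX6, a close relative of SOX5, moved in opposite directions in the lines. It had 0.615, 0.565 and 0.726 CPM in resistant A375, against 4.08, 3.69 and 3.92 CPM in sensitive A375, a log2 fold change of -2.62 ± 0.16 (adjusted p = 3.70e-18). In SKMel28, where SOX6 was an abundant member, it had 97.98, 93.3 and 89.8 CPM in resistant cells, against 78.6, 73.0 and 74.3 CPM in sensitive cells. That rise was small, at 0.31 ± 0.05 (adjusted p = 5.80e-07), with no overlap between the groups.

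SOX13, the third group D gene, was close to level in A375 and clearly lower in resistant SKMel28. It had 34.3, 35.9 and 31.97 CPM in resistant A375, against 31.5, 30.4 and 31.4 CPM in sensitive A375. This difference of 0.13 ± 0.05 passed narrowly (adjusted p = 0.0410). It was not called when only the A375 groups were fitted (adjusted p = 0.0507), nor without resistant library 2 (0.0801) or sensitive library 1 (0.0696), 2 (0.137) or 3 (0.0664), and without resistant library 3 it was 0.21. In SKMel28, SOX13 had 46.9, 46.7 and 45.3 CPM in resistant cells, against 127, 121 and 131 CPM in sensitive cells. The groups lay far apart, and SOX13 fell by 1.45 ± 0.05 on the log2 scale (adjusted p = 7.20e-28).

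The group C genes, known for roles in neuronal and mesenchymal progenitors, did not move as a block. SOX4 had 30.2, 30.1 and 26.5 CPM in resistant A375, against 11.2, 11.01 and 10.6 CPM in sensitive A375. It had 73.0, 68.2 and 68.9 CPM in resistant SKMel28, against 49.8, 47.4 and 48.1 CPM in sensitive SKMel28. SOX4 was the one member called higher in both lines with no overlap in either, by 1.40 ± 0.07 in A375 (adjusted p = 1.02e-21) and 0.53 ± 0.06 in SKMel28 (adjusted p = 1.51e-11).

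SOX11 was measurable in A375 and nearly absent from SKMel28. It had 2.38, 2.17 and 2.06 CPM in resistant A375, against 21.8, 19.6 and 20.9 CPM in sensitive A375, a fall of 3.24 ± 0.14 on the log2 scale (adjusted p = 2.25e-22). In SKMel28 it had 0 reads in all 3 resistant libraries, against 1, 0 and 4 reads in the sensitive ones. The counting interval of the ratio, sensitive over resistant, began at 0.999, so that counting error alone allows no change, and the groups overlapped. The edgeR call there (adjusted p = 0.0248) was lost when any of the 3 resistant libraries was left out (0.0537 to 0.0570) and without sensitive library 3 (0.238).

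SOX12 took opposite directions in the lines. It had 40.8, 37.5 and 38.1 CPM in resistant A375, against 59.9, 55.5 and 58.2 CPM in sensitive A375. It had 86.5, 87.4 and 92.7 CPM in resistant SKMel28, against 51.6, 51.1 and 56.3 CPM in sensitive SKMel28. Neither pair of groups overlapped, and the log2 fold changes were -0.58 ± 0.05 in A375 (adjusted p = 9.39e-13) and 0.75 ± 0.05 in SKMel28 (adjusted p = 3.32e-17).

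SOX2, of group B1, is known for holding stem cells and neural progenitors in an undifferentiated state. It had 0.923, 1.72 and 2.15 CPM in resistant A375, against 18.6, 18.6 and 18.4 CPM in sensitive A375, and fell by 3.54 ± 0.23 on the log2 scale (adjusted p = 2.03e-10). The highest resistant A375 library lay far below the lowest sensitive one. In SKMel28 it had 3.59, 3.31 and 4.23 CPM in resistant cells, against 1.30, 1.78 and 3.42 CPM in sensitive cells, and the groups overlapped. The SKMel28 change of 0.77 ± 0.26 (adjusted p = 0.0148) was not called without resistant library 3 (0.67, adjusted p = 0.0670) and was 1.27 without sensitive library 3, the highest of its group.

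**Figure D2:**
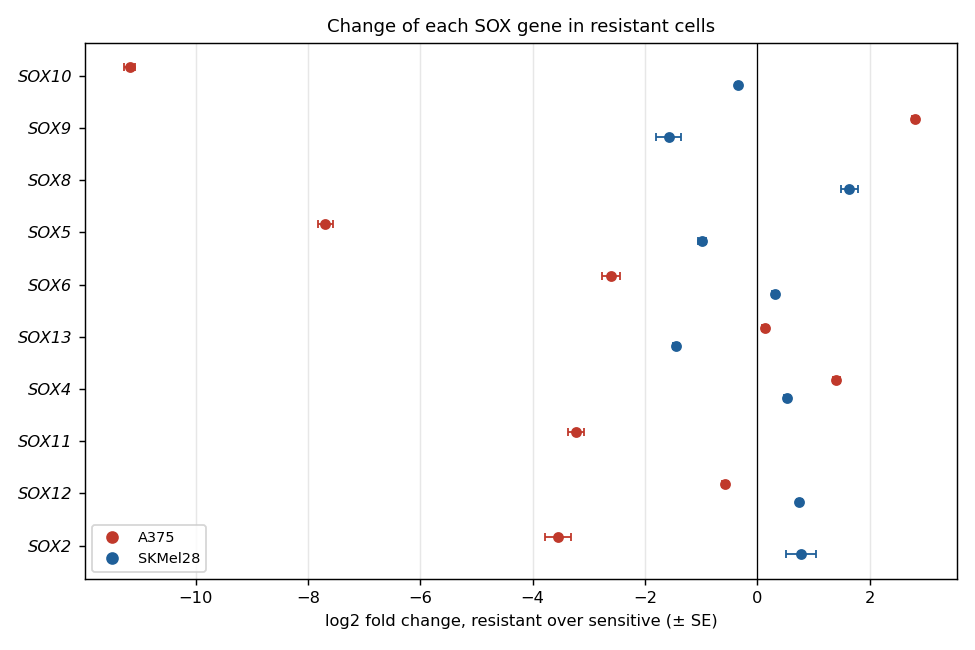
Log2 fold change of each SOX gene, resistant over sensitive, with standard errors, for A375 in red and SKMel28 in blue. SOX8 in A375 and SOX11 in SKMel28 are not drawn because a group there had no read. SOX10 at -11.18 and SOX5 at -7.69 in A375 lie farthest from 0, and SOX9, SOX6, SOX13, SOX12 and SOX2 lie on opposite sides of 0 in the lines.

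Of the 9 other SOX genes, SOX15 and SOX18 passed the filter. SOX18, a factor of blood and lymph vessels, averaged 2.56 ± 0.76 CPM in resistant A375 and 6.21 ± 0.81 CPM in sensitive A375 (SD, n = 3), and it fell by 1.28 ± 0.20 on the log2 scale (adjusted p = 8.14e-07). SOX15 was not called in A375, where it averaged 3.39 CPM in resistant and 2.71 CPM in sensitive cells (0.32 ± 0.20, adjusted p = 0.196). Neither was called in SKMel28, where both were under 1 CPM. SOX7 had 27 reads over resistant A375 libraries, against 9 over sensitive ones, and PINX1 overlaps 39.4% of its exon bases, so these reads are uncertain. SOX30 had 6 reads over resistant A375 libraries, against 11 over sensitive ones, and SOX1, SOX3, SOX14, SOX17 and SOX21 had 3 reads or fewer in every group. Among noncoding RNAs of the SOX loci, SOX9-AS1 had 16 reads over resistant A375 libraries, against 2 over sensitive ones, and SOX2-OT had 2 reads over resistant A375 libraries, against 24 over sensitive ones. Both were too low to test, and counting without strand leaves their reads uncertain.

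The contrast between lines was tested as a difference of changes, A375 minus SKMel28. It was called for 8 of the 10 members, 3 higher and 5 lower, where 63.8% of all genes were called, 31.4% higher and 32.4% lower. The difference was -10.83 ± 0.11 for SOX10 (adjusted p = 3.53e-47), -6.70 ± 0.18 for SOX5 (adjusted p = 1.93e-31) and 4.38 ± 0.23 for SOX9 (adjusted p = 5.14e-21). SOX2, SOX6 and SOX12 changed more negatively in A375, and SOX13 and SOX4 more positively. SOX8 and SOX11, each with a group at 0 reads, did not pass (adjusted p = 0.171 for SOX8 and 0.414 for SOX11).

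The order of the groups differed from gene to gene. SOX10 was highest in sensitive SKMel28, then resistant SKMel28, sensitive A375 and resistant A375, with no overlap between neighbours. SOX9 ran from resistant A375 through sensitive A375 and sensitive SKMel28 to resistant SKMel28, again with no overlap, so the group lowest in SOX10 was highest in SOX9 and the group lowest in SOX9 was the second highest in SOX10. SOX5 was highest in sensitive A375 and lowest in resistant A375. SOX6 and SOX4 were higher in both SKMel28 groups than in either A375 group, and SOX11 was the reverse. For SOX2, sensitive A375 stood alone at the top, and the ranges of the other neighbours overlapped. For SOX12, sensitive A375 and sensitive SKMel28 overlapped.

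Between resistant lines, all 10 members were called, 2 higher and 8 lower in A375, where 85.3% of all genes were called, 42.6% higher and 42.7% lower. Resistant A375 held 412.5-fold more SOX9 than resistant SKMel28 (counting interval 311 to 560) and 4163.7-fold less SOX10 (2481 to 7616). SOX8 was at least 443-fold lower in resistant A375 against a floor of 3 reads over the group, with a counting interval that began at 359.7. SOX11 was at least 72.5-fold higher in resistant A375 against the same floor, with a counting interval that began at 58.5. Between sensitive lines all 10 were called as well, 5 in each direction, where 82.9% of all genes were called, 42.4% higher and 40.5% lower. There the log2 difference, A375 over SKMel28, was -1.15 ± 0.04 for SOX10 and 4.30 ± 0.10 for SOX9, so the lines already differed in both genes among sensitive cells. SOX12 differed by 0.13 ± 0.05 between sensitive lines (adjusted p = 0.0222), and that call was lost in 4 of 6 fits with a library left out. Scaling by library size alone moved the median of all genes by 0.21 between resistant and 0.15 between sensitive lines. Under it SOX12 was 0.28 between sensitive lines and SOX13 was -0.23 between resistant lines, against -0.44 with TMM, and no member changed direction.

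To compare levels between genes, CPM was divided by exon length in kilobases. Exon length took in the exons of all annotated transcripts, with 19636 bases for SOX6, 10445 for SOX5 and 3710 for SOX10. Levels and shares of genes with many annotated exons may thus be understated. Each gene's share of the summed level of the 19 SOX genes was then taken. SOX10 made up 0.0505% ± 0.0176 of this sum in resistant A375 and 65.8% ± 0.653 in sensitive A375 (SD, n = 3). SOX9 made up 69.3% ± 0.411 in resistant A375 and 5.49% ± 0.212 in sensitive A375. The place of the leading SOX transcript thus belonged to SOX9 in resistant A375 and to SOX10 in each of the other groups. In SKMel28, SOX10 made up 75.9% ± 0.879 in resistant and 80.9% ± 0.329 in sensitive cells, and SOX9 0.0609% in resistant and 0.154% in sensitive cells.

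**Figure D3:**
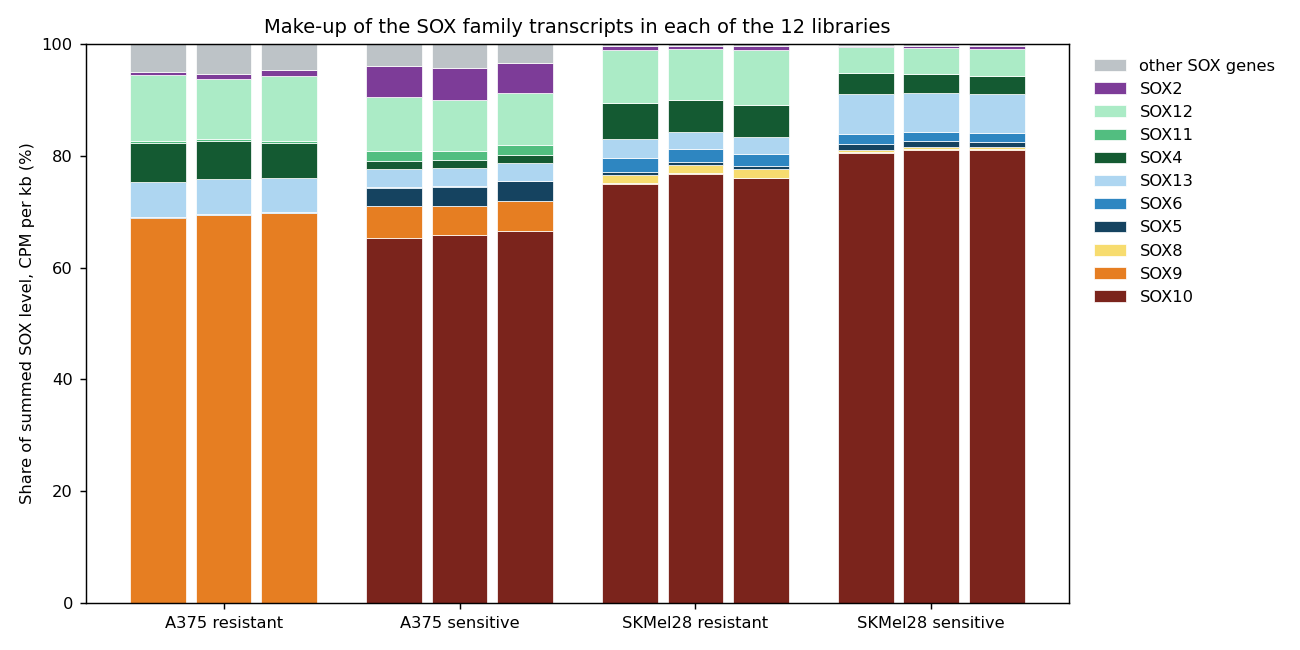
Share of each SOX gene in the summed SOX level (CPM per kilobase of exon, in percent) in each of the 12 libraries, ordered by group. Grey sums the 9 other SOX genes. SOX9 takes up 68.9% to 69.7% of each resistant A375 bar, where SOX10 takes up 65.2% to 66.5% in sensitive A375.

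Group E as a whole held a near-equal share of the SOX sum in both states of A375, 69.4% ± 0.426 in resistant and 71.3% ± 0.577 in sensitive cells. The sum itself was smaller. Group E levels per kilobase added up to 51.1 ± 1.44 CPM in resistant A375 and 95.0 ± 1.83 CPM in sensitive A375, and the groups did not overlap. In these units SOX9 stood at 51.0 CPM in resistant and 7.31 CPM in sensitive cells, and SOX10 at 0.0372 CPM in resistant and 87.7 CPM in sensitive cells. The gain in SOX9 was thus smaller than the loss of SOX10. All 19 genes together came to 73.6 ± 2.29 CPM in resistant and 133 ± 1.90 CPM in sensitive A375, and without SOX10 to 73.6 ± 2.28 CPM in resistant and 45.5 ± 1.02 CPM in sensitive A375.

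Of the other groups, group C held a larger share of the sum in resistant cells of both lines. It held 18.5% in resistant and 12.6% in sensitive A375, and 15.4% in resistant and 8.21% in sensitive SKMel28. Its summed level per kilobase was nevertheless lower in resistant A375, at 13.6 ± 0.634 CPM against 16.7 ± 0.623 CPM in sensitive A375 (SD, n = 3). Only in SKMel28 was that level higher in resistant cells, at 31.2 CPM against 19.7 CPM. Group D held 6.31% in resistant and 6.69% in sensitive A375, but its make-up changed. SOX5 held 0.0295% in resistant and 3.39% in sensitive cells, while SOX13 held 6.23% in resistant and 3.15% in sensitive cells. As a level per kilobase, group D fell, with 4.64 CPM in resistant and 8.91 CPM in sensitive A375. SOX13 was near level in these units, at 4.59 CPM in resistant and 4.19 CPM in sensitive A375, so its larger share came with a smaller sum. In SKMel28, group D held 6.07% in resistant and 9.70% in sensitive cells. Group B1 held 0.869% in resistant and 5.54% in sensitive A375.

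Genes that SOX10 is known to activate in melanocytes and glia were lower in resistant A375 for the most part. Of the 18 tested, 2 were called higher and 11 lower, with a median of -1.33 beside a median of 0 over all genes tested. Of all genes tested, 25% were called higher and 26.3% lower in A375. ERBB3, the neuregulin receptor of neural crest and Schwann cells, had 3.998, 3.39 and 3.78 CPM in resistant A375, against 125, 120.4 and 128 CPM in sensitive A375 (-5.06 ± 0.06, adjusted p = 1.99e-43). The gap junction gene GJB1 fell by 5.91 ± 0.24. S100B, a calcium-binding protein gene, fell by 6.74 ± 0.17, the cadherin gene CDH19 fell by 8.49 ± 0.21, and NES, which encodes an intermediate filament, fell by 2.29 ± 0.06. The genes called higher, TYRP1 and DCT, encode pigment enzymes and were near 0 in A375, with 36 TYRP1 reads over resistant libraries, against 19 over sensitive ones, and 4 DCT reads, against 0. MITF itself, which SOX10 is known to activate, fell only by 0.36 ± 0.05, with 31.0 ± 1.43 CPM in resistant and 39.6 ± 1.16 CPM in sensitive A375 (adjusted p = 6.89e-09).

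In SKMel28, which kept SOX10, 10 of the same 18 genes were called higher and 6 lower, with a median of 0.28. TYRP1 rose by 3.23 ± 0.04 (2037 CPM in resistant, 218 CPM in sensitive cells), CDH19 by 2.72 ± 0.07 and NES by 2.42 ± 0.08. S100B fell by 1.33 ± 0.04 and GJB1 fell by 1.55 ± 0.05. ERBB3 was nearly level there, at 124 CPM in resistant and 133 CPM in sensitive cells (-0.10 ± 0.04, adjusted p = 0.0260). The difference between lines was called for 14 of the 18 genes, 3 higher and 11 lower, where 63.8% of all genes were called. It was widest for CDH19, at -11.21 (adjusted p = 1.38e-37).

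**Figure D4:**
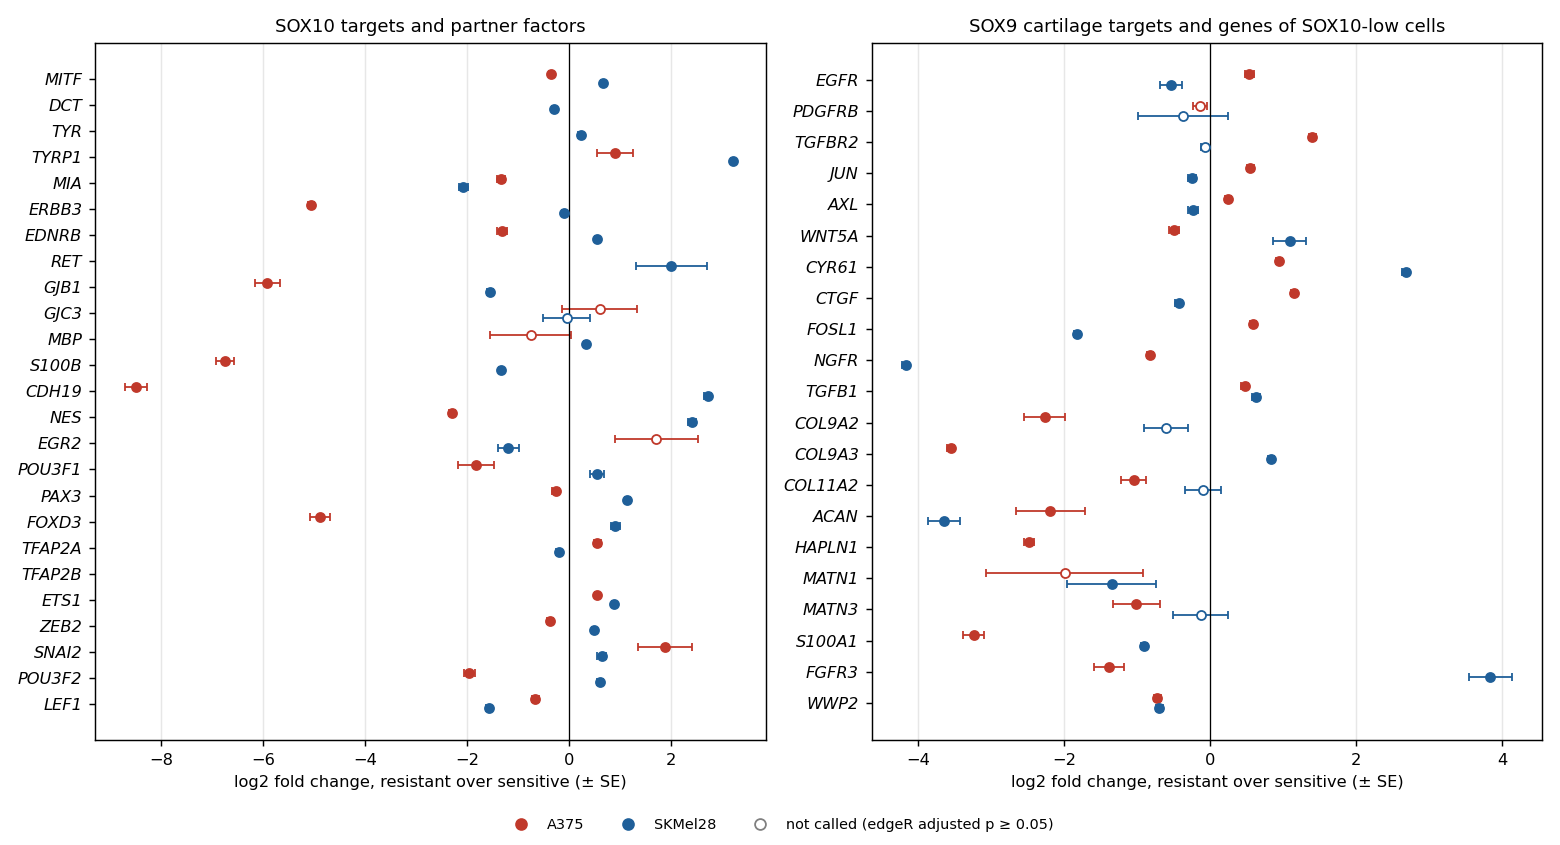
Log2 fold change, resistant over sensitive, with standard errors, of known SOX10 targets and partner factors on the left and of SOX9 cartilage targets and genes of SOX10-low melanoma cells on the right, for A375 in red and SKMel28 in blue. Open points were not called, and genes with no read in a group of a line are not drawn for that line. A few listed genes are left out of the plot. CDH19 lies at -8.49 in A375 and 2.72 in SKMel28, and COL9A3 at -3.55 in A375 and 0.83 in SKMel28.

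The 250 bases before a start in RefSeq (GRCh38.p14) could be read for SOX5 and CDH19, the member and the known target that fell farthest beside SOX10 in A375. They are printed 5′ to 3′ on the gene's strand, with capitals marking AACAANG, a SOX-type motif, on either strand. The SOX5 window is chr12:24562492-24562741 and the CDH19 window chr18:66604091-66604340, both for minus-strand genes.
SOX5: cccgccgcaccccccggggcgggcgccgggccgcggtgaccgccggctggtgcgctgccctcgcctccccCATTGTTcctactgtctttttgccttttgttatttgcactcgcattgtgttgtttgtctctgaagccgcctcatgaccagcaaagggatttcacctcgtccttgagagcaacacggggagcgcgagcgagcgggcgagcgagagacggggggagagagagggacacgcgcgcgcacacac
CDH19: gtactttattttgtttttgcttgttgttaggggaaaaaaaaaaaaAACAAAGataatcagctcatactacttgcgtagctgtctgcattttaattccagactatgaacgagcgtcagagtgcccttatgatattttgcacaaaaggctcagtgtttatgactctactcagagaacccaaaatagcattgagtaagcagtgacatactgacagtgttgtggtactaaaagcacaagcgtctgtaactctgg
Each held 1 match, but a window was kept for printing only if it held a match. The matches are therefore no result about SOX5 and CDH19. Windows of these 250 bases with a match numbered 3 of 10 over 6 members in the table (30%), 5 of 24 over 15 SOX10 targets (20.8%) and 3662 of 35116 over the whole table (10.4%). A gene can have several windows, and among members SOX6 had the most windows and the most with a match. SOX10, SOX9, SOX8 and SOX11 had no window. A match is a run of letters and was not tested as a binding site.

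Factors that work with SOX10 were all called in A375, 3 higher and 6 lower of 9, where 51.3% of all genes were called. Their median was -0.38. FOXD3, a repressor of the early neural crest, averaged 0.263 ± 0.0742 CPM in resistant and 7.90 ± 0.255 CPM in sensitive A375 (-4.88 ± 0.20). POU3F2, a POU factor of neural and melanoma cells, fell by 1.95 ± 0.10, and LEF1, the WNT effector, by 0.66 ± 0.07. TFAP2B, an AP-2 factor, had 0 reads over resistant A375 libraries, against 148 over sensitive ones. ETS1 and TFAP2A each rose by 0.55. In SKMel28, 6 were called higher and 2 lower of 9, where 34.2% of all genes were called higher and 35.8% lower. PAX3, which shares the MITF promoter with SOX10, rose there by 1.15 ± 0.06 and FOXD3 by 0.91 ± 0.09. LEF1 fell, with a log2 fold change of -1.58 ± 0.05.

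SOX9's known targets in cartilage did not follow SOX9 upward in A375. Of 10 tested, none was called higher and 9 were called lower, with a median of -2.09 beside 0 over all genes tested. The shares over all genes were 25% higher and 26.3% lower. The type IX collagen gene COL9A3 had 27.2, 28.4 and 28.3 CPM in resistant A375, against 333, 311 and 339 CPM in sensitive A375 (-3.55 ± 0.05, adjusted p = 5.33e-40). HAPLN1, the link protein gene of cartilage matrix, fell by 2.48 ± 0.06, S100A1 by 3.24 ± 0.14 and FGFR3 by 1.39 ± 0.20. The tenth, MATN1, was not called and had 0.0285 CPM in resistant and 0.131 CPM in sensitive cells, and COL2A1, COL9A1, COMP and LECT1 had too few reads to test. In SKMel28, 2 of the 10 were called higher, FGFR3 by 3.84 ± 0.30 and COL9A3 by 0.83 ± 0.04, and 4 lower, with ACAN at -3.64 ± 0.22. The shares over all genes in SKMel28 were 34.2% higher and 35.8% lower. COL9A3 averaged 217 CPM in resistant and 122 CPM in sensitive SKMel28, where SOX9 averaged 0.486 CPM and 1.46 CPM. S100A1 averaged 143 CPM in resistant and 268 CPM in sensitive SKMel28. The other genes of the list were lower there, with HAPLN1 at 0 CPM in resistant and 0.0112 CPM in sensitive cells. Whether SOX9 acts on these genes in either line was not tested.

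Genes associated with dedifferentiated, SOX10-low or drug-tolerant melanoma were for the most part higher in resistant A375. Of 12, 9 were called higher and 2 lower, where 25% of all genes were called higher and 26.3% lower. Their median was 0.54. The TGF-beta receptor gene TGFBR2 had 244, 242 and 248 CPM in resistant A375, against 91.5, 90.6 and 96.5 CPM in sensitive A375 (1.40 ± 0.04, adjusted p = 9.49e-29). No resistant library came near a sensitive one. The matricellular genes CTGF and CYR61 rose by 1.15 ± 0.05 and 0.94 ± 0.04. NGFR, a neural crest receptor gene, fell by 0.82 ± 0.04, and PDGFRB was not called (-0.14 ± 0.10). In SKMel28 the same list split, 4 higher and 6 lower, where 34.2% of all genes were called higher and 35.8% lower. CYR61 stood at 2.67 ± 0.05, NGFR at -4.17 ± 0.05 and FOSL1, an AP-1 subunit, at -1.82 ± 0.04.

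For the group C factors, 4 known targets were tested, and all 4 were called lower in A375, where SOX4 rose and SOX11 and SOX12 fell. Among all genes tested, 26.3% were called lower in A375. SEMA3C, a guidance molecule, fell by 0.91 ± 0.05, EZH2 by 0.36 ± 0.05, TEAD2 by 0.28 ± 0.09 and the neuronal tubulin gene TUBB3 by 0.23 ± 0.04. In SKMel28, SEMA3C rose by 0.80 ± 0.05 and TUBB3 fell by 1.09 ± 0.04. Of 9 partners and targets of SOX2 in pluripotent cells, 4 had enough reads to test, and KLF4 alone was called in either line, at 0.25 ± 0.08 in A375 and -2.46 ± 0.14 in SKMel28. Among all genes, 51.3% were called in A375 and 70% in SKMel28.

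Genes lying around the members on their chromosomes were set beside them. Of the 98 genes at 2 CPM or more within 5 Mb of SOX10, none fell as far in A375, and their median was 0.07. The 77 neighbours of SOX9 had a median of -0.01, and none rose as far. The 27 neighbours of SOX5 had a median of 0.13, and none was as low. SOX12 was different. The median of its 48 neighbours on chromosome 20 was -0.43 in A375, 37 of them were called lower, and 11 lay at or below SOX12's own -0.58. Their part in the fall of SOX12 was not tested. In SKMel28 its 48 neighbours went both ways, 17 called lower and 19 higher, with a median of 0.01. The 98 neighbours of SOX10 had a median of -0.09 in SKMel28, and 32 lay at or below its own -0.34. The 77 neighbours of SOX9 had a median of -0.32 in SKMel28, and 5 lay at or below its own -1.58. For SOX5 in SKMel28, 3 of 27 neighbours lay at or below its own -0.99.

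**Figure D5:**
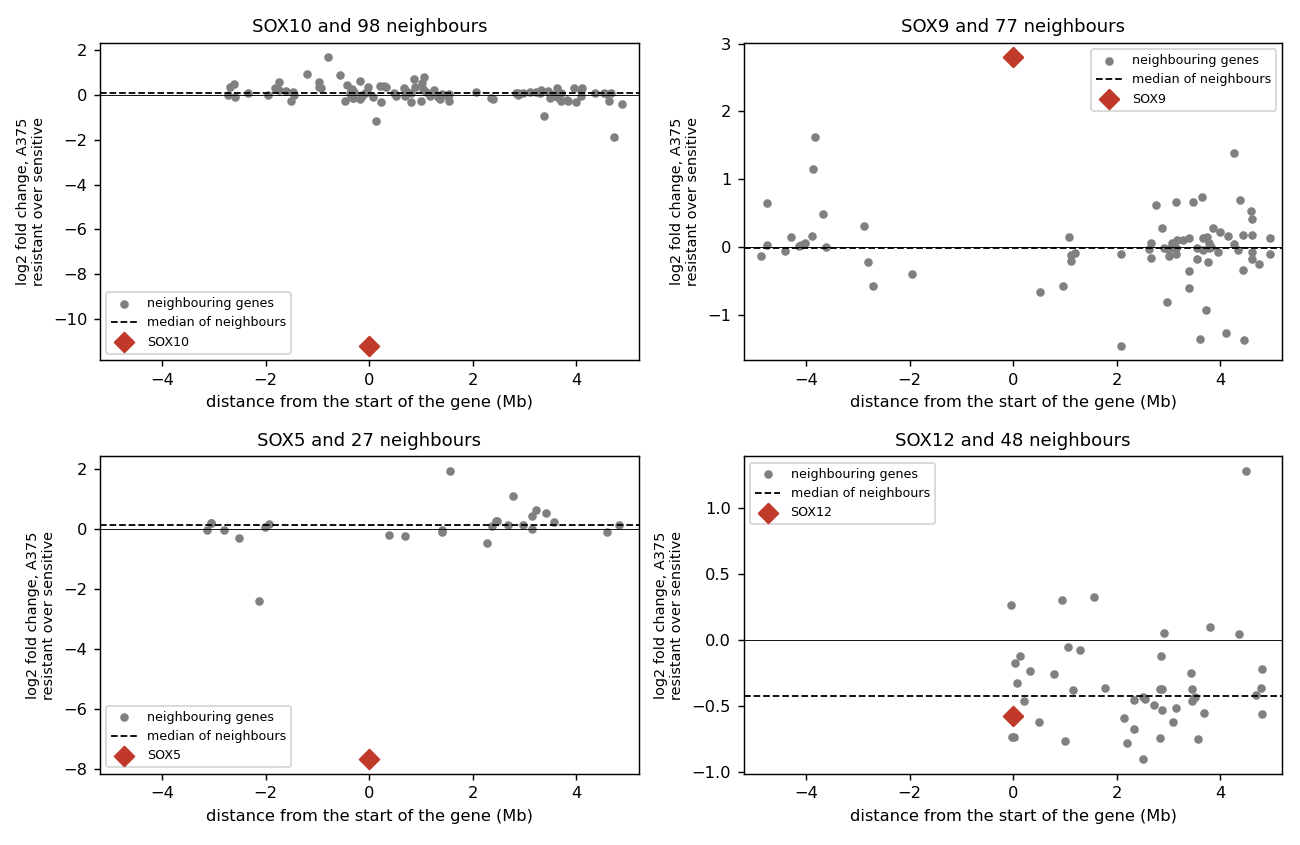
Log2 fold change in A375, resistant over sensitive, of genes within 5 Mb of SOX10, SOX9, SOX5 and SOX12, against distance from the start of the gene in Mb. Grey points are neighbours at 2 CPM or more, the dashed line is their median and the diamond is the SOX gene. SOX12 at -0.58 lies among neighbours with a median of -0.43, while the others lie apart from theirs.

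The genes whose log2 CPM pattern was most like that of SOX10 over the 12 libraries were EPHA3 (Pearson r = 0.999), ERBB3 (0.996), GLUL (0.992), CDC42 (0.992), SEC23B (0.991) and NOP56 (0.991). The libraries fall into 4 groups, so these values rest on 4 group levels. Each of these genes was lowest in resistant A375, but the other groups did not always keep the order of SOX10. ERBB3 averaged 124.5 CPM in sensitive A375 and 124.1 CPM in resistant SKMel28. SEC23B averaged 114.3 CPM in resistant and 113.65 CPM in sensitive SKMel28. EPHA3, an ephrin receptor gene, was listed at 0 in resistant A375 and averaged 7.96 CPM in sensitive A375, 9.95 CPM in resistant SKMel28 and 14.3 CPM in sensitive SKMel28. The spread of levels was far smaller for CDC42, a small GTPase gene, at 188 CPM in resistant A375 and 286 CPM in sensitive A375.

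Markers of the labelled cell type differed between the lines. In A375, TYR had no read in either state, and PMEL, MLANA, DCT and TYRP1 were each under 1 CPM, whereas none of the 10 melanoma markers was under 1 CPM in SKMel28. Summed, they came to 470.0 to 482 CPM in resistant and 749 to 806 CPM in sensitive A375, and to 11134 to 11334 CPM in resistant and 7859 to 8309 CPM in sensitive SKMel28. Fibroblast markers summed to 3.69 to 4.12 CPM in resistant and 4.76 to 5.45 CPM in sensitive A375, and endothelial markers to 2.59 to 3.38 CPM in resistant and 4.52 to 6.07 CPM in sensitive A375. Single endothelial markers went both ways. PECAM1 averaged 2.42 CPM in resistant and 0.626 CPM in sensitive A375, and KDR 0.383 CPM in resistant and 3.84 CPM in sensitive A375. The immune marker CD3E had no read in A375, and PTPRC was at 0.0854 CPM in resistant and 0.0252 CPM in sensitive cells. Most of the immune sum was CD68 in both lines, at 57.5 CPM in resistant and 31.0 CPM in sensitive A375 and at 761 CPM in resistant and 211 CPM in sensitive SKMel28. LYZ, the other immune marker tested, went the other way. It had 2.07 CPM in resistant and 8.66 CPM in sensitive A375, and 0.0510 CPM in resistant and 1.30 CPM in sensitive SKMel28. The keratinocyte sum, 83.3 to 93.7 CPM in resistant and 120.4 to 124 CPM in sensitive A375, was mostly KRT10, while KRT1 had no read. In SKMel28 that sum was 28.1 to 33.6 CPM in resistant and 66.4 to 70.4 CPM in sensitive cells. Of the 3 keratinocyte markers tested in A375, 2 were called lower, where 26.3% of all genes were called lower. KRT14 had 0.499 ± 0.185 CPM in resistant and 25.5 ± 1.96 CPM in sensitive A375 (SD, n = 3), a log2 fold change of -5.67 ± 0.18 (edgeR adjusted p = 9.64e-29). KRT5 had 1 read over resistant libraries, against 92 over sensitive ones. Both were thus lower in the A375 cells that were low in SOX10. The part of other cells in the SOX changes was not tested.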

How the data were processed

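Poly(A)-selected RNA of 12 libraries was sequenced as paired 150-base reads, per the labels' protocols. The deposited files hold raw, whole-number read counts by gene symbol (26499 genes). HISAT2, StringTie and GRCh38.p12 are named in the submitters' processing notes, but the names of the deposited files point to STAR and unstranded counting on hg38, so the aligner is not settled and reads of overlapping or antisense genes cannot be told apart. Of counted reads, 15.1% to 19.5% were not assigned to a gene and stayed out of library sizes.

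Counts were filtered with filterByExpr (15506 genes kept), scaled by TMM and fitted in 1 model of 4 group means with 8 residual degrees of freedom, using robust quasi-likelihood in edgeR 4.0.16 (R 4.3.3), two-sided, with Benjamini-Hochberg adjustment over all genes tested. The steps were tested on simulated counts. Alternatives were other scalings, no filter, DESeq2 1.42.0, a replicate block, fewer groups and libraries left out. Replicate pairs gave a chi-square of 2.77 to 7.14 per degree of freedom, so no library was a copy. Exon lengths, positions and HMG box sequences came from GENCODE release 29. Floors of 3 reads over a group and intervals (exact binomial, 95%) cover counting error only.

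The members and gene lists were chosen with earlier results of these data known. Named were all members, other SOX genes with at least 10 reads in a group, up to 6 called genes of smallest adjusted p per list and comparison, and the 6 genes most like SOX10 among those at 10 CPM or more. SOX1, SOX3, SOX14, SOX17, SOX21, SOX9-AS1, SOX2-OT, PDGFRB and genes given as too low to test are named outside this rule, after their values were seen. Some genes the rule names are counted in their lists but not reported here.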

Additional observations from a re-analysis of the deposited data

Results flagged for a closer look

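For 10 SOX genes the change between resistant and sensitive cells differed between the lines in edgeR's test of that difference, A375 change minus SKMel28 change on the log2 scale. The difference was -10.83 for SOX10, -6.70 for SOX5, -4.32 for SOX2, -2.93 for SOX6 and -1.32 for SOX12, with adjusted p from 3.53e-47 to 3.25e-09. It was 4.38 for SOX9, 1.58 for SOX13 and 0.87 for SOX4, with adjusted p from 1.07e-22 to 9.23e-12. SOX15 (0.94, adjusted p = 0.0498) and SOX18 (-0.91, adjusted p = 0.0423) passed narrowly. Genes called in this comparison made up 63.8% of all genes tested.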

How the results depend on the processing

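The count of members called stayed within 1.5 times its value in all 65 alternative fits. With 8 to 10 of 10 members called, this bound is loose and cannot be passed upward. Direction was kept in all but 1 of 729 fits of single SOX genes, 34 of which lost a call. Leaving out 1 library at a time gave 8 to 9 members called in A375, 8 to 10 in SKMel28, 8 in the difference between lines, 10 between resistant lines and 9 to 10 between sensitive lines. The direction that changed was the SOX11 difference between lines, 0.72 with all libraries, -0.80 to 1.28 with 1 left out, and -0.80 without sensitive SKMel28 library 3 (adjusted p = 0.668), called in neither; SOX11 had 5 reads in SKMel28. SOX15 and SOX18 were added to these fits after seeing the data. Of 17 alternatives, 13 lost the SOX15 difference between lines (0.73 to 1.07) and 7 the SOX18 one (-1.10 to -0.64). SOX10 in A375 ran from -11.37 to -10.88 and SOX9 from 2.76 to 2.86. Correlations of same-numbered libraries ran from -0.00240 to 0.0471 within lines, and those of different-numbered libraries from -0.0422 to 0.0161. These values cannot settle whether numbers mark a shared culture or day, and the labels do not say. With a replicate block, 9, 10 and 8 members were called in A375, SKMel28 and their difference, and the block changed no call of a member; the SOX15 difference lost its call (adjusted p = 0.0692). SOX8 in A375 and SOX11 in SKMel28 are limited by depth, with 0 reads in the resistant cells.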
